A study of Mus musculus with 18 samples.

Results

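The genes described here were those of the extracellular matrix: collagens, basement membrane proteins, elastic fibre proteins, proteoglycans, and the enzymes that crosslink or cut them. They were taken from a list of 52 gene symbols, of which 50 were matched to a probe on the Illumina MouseRef-8 array, and each gene was represented by its brightest probe, judged by the mean of all 18 arrays. Fn1 and Fbn1, which encode fibronectin and fibrillin-1, have no probe named in the probe table used and were not analysed here. Of the 50 genes, 35 were detected, with a detection p-value under 0.01 on all 3 arrays of at least 1 absorbed dose group, and 15 were not.

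The matrix is made mostly by fibroblasts and, at basement membranes, also by the epithelial, endothelial, and muscle cells that sit on them. Fibrillar collagens form the cables of connective tissue, and type IV collagen and laminins form 2 networks of the basement membrane that nidogens join. Lysyl oxidases crosslink collagen and elastin, metalloproteinases cut them, and TIMP proteins inhibit the metalloproteinases. Slow accumulation of matrix, fibrosis, is a known late effect of radiation in many organs.

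Female BALB/c nude mice, 6 months old, were injected in a tail vein with 211At, an alpha-particle emitter that the thyroid takes up, and the tissue labelled thyroid was taken 24 h later. The 5 irradiated groups had absorbed doses of 0.05, 0.5, 1.4, 11.2, and 32.4 Gy, and the non-irradiated controls (0 Gy), of the same strain, were treated with an empty syringe. Tissue of the mice of a group was pooled before RNA extraction and each of the 6 pools was run on 3 arrays, so that every error and p-value given here measures the spread between arrays of 1 pool and not that between mice. All 5 comparisons with 0 Gy share the same 3 control arrays.

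Most of the defining transcripts of thyroid follicular cells were not detected by the probes of this array. Of 9 such genes with a probe, 8 were detected on none of the 18 arrays on any of their probes, among them Tg (thyroglobulin), Slc5a5 (the iodide transporter), Pax8, Nkx2-1, and Foxe1. The exception was Tshr, with 1 of its probes detected on 8 arrays and the other on 4. Salivary gland transcripts were detected instead, all 10 of those listed with a probe, and they differed widely between pools. Muc10, a salivary mucin, had log2 ratios to 0 Gy of 3.60 to 4.12 over the 5 doses, and Amy1, the salivary amylase, had −5.42 to −3.57. The pool of 1.4 Gy differed from the other irradiated pools in these genes. Of the 10 salivary genes 7, 7, 3, 7, and 7 were called higher and 3, 3, 4, 2, and 3 lower in rising order of dose, and the list median was 1.73, 1.83, −0.24, 1.67, and 1.51. Aqp5, a water channel of salivary acini, had −2.17 at 1.4 Gy and 0.90 to 1.95 at the other doses. Skeletal muscle transcripts were higher at each dose (8 of 9 called higher at 0.05, 0.5, 11.2, and 32.4 Gy and 6 at 1.4 Gy, with list medians of 2.21, 1.84, 0.66, 1.41, and 3.07 in rising order of dose). The part of these differences between pools in the results below was not tested. In such bulk RNA, fewer cells of a type and less RNA per cell cannot be told apart. Between 9737 and 10995 probes were detected per array, with median raw signals of 86.3 to 115.3.

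The deposited normalized values come in 2 sets with different distributions, 6 arrays of 0.05 and 0.5 Gy and 12 arrays of the other groups, and the upper quartile of the first set lay 0.46 log2 units below that of the second. The results below therefore come from the non-normalized signals of all 18 arrays, quantile normalized together. Deposited values are given beside them for many of the 50 genes, and for a few genes of the further lists and markers. A call needed a change of 1.5-fold or more together with an adjusted p below 0.01 in limma (over all 25697 probes). Of the 50 matrix genes 1, 5, 5, 0, and 1 were called against 0 Gy in rising order of dose, and 9 genes were called in all. Of all detected probes 6.09%, 8.6%, 2.88%, 4.31%, and 3.05% were called higher in the same order. The shares called lower were 5.08%, 9.13%, 2.79%, 2.22%, and 1.81%.

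**Figure D1:**
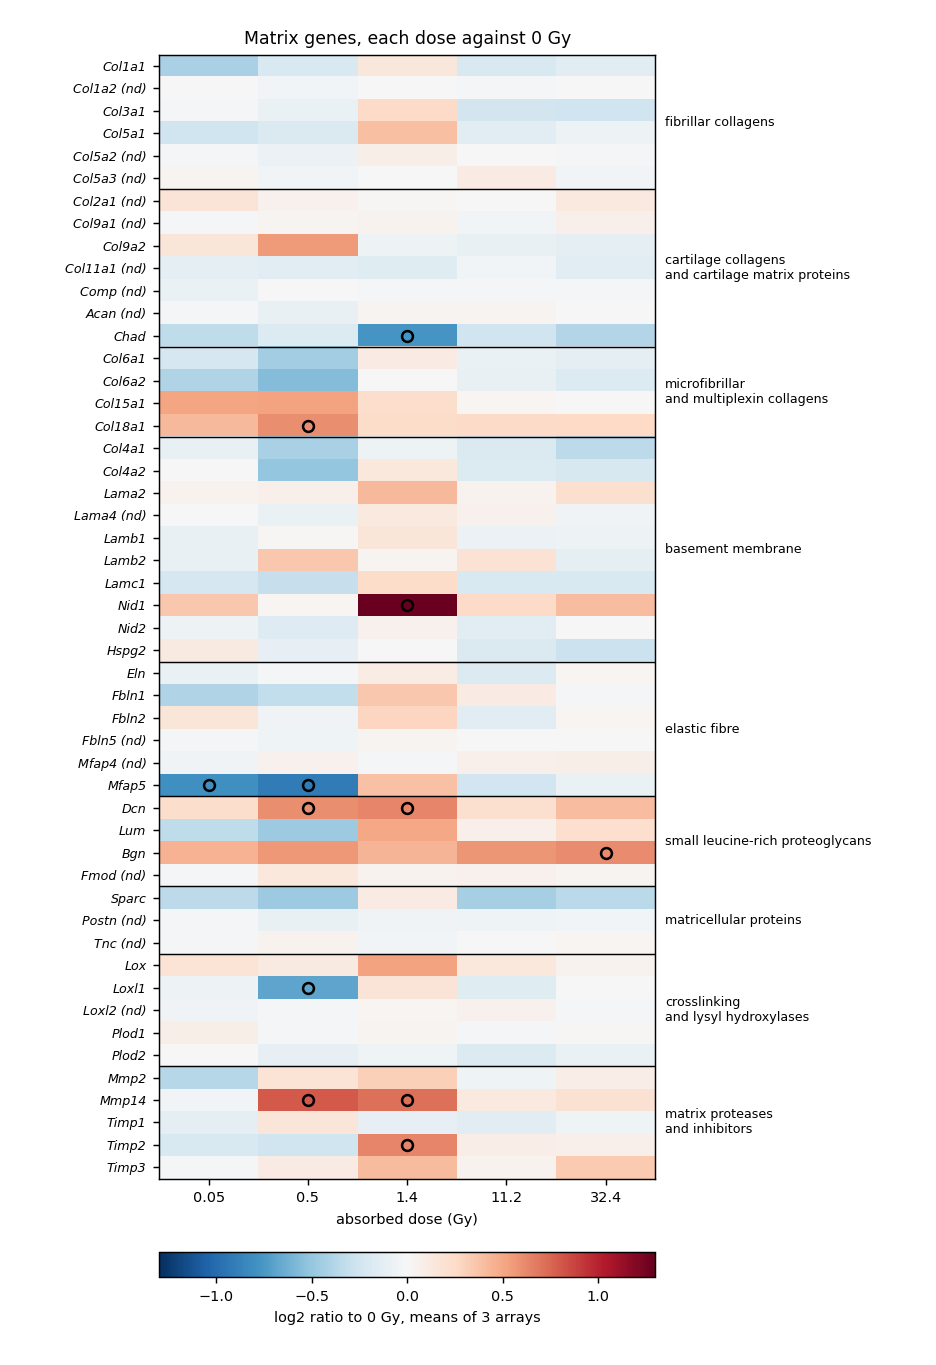
Log2 ratio to 0 Gy (colour) of the 50 matrix genes (rows, grouped by role) at the 5 absorbed doses (columns), from means of 3 arrays each. Circles mark calls, nd marks genes not detected on all 3 arrays of any group, and the darkest cell is Nid1 at 1.4 Gy (1.29).

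The group at 1.4 Gy held the matrix gene with the largest ratio of all 5 comparisons, Nid1, which encodes the basement membrane linker nidogen-1. Together with it Mmp14, Dcn, and Timp2 rose at 1.4 Gy and Chad fell. These were 4 of 50 genes called higher, against 1.23% of all probes, and 1 of 50 called lower, against 1.19% of all probes. Of detected probes 2.88% were called higher and 2.79% lower. RefSeq start site windows (mouse build GRCm38.p6, 250 bases before to 50 after the start, 5′ to 3′ on the gene's strand) were matched for 33 of the 50 genes, and those of 4 of the 5 genes called at 1.4 Gy (all but Dcn) are printed to show what they hold in common. Capitals mark 3 motifs, searched on both strands. The GC box was searched as GGGCGG. The second motif was the CCAAT box, which reads ATTGG from the other strand. The letters of the TATA box were TATAAA. Nid1 lies at chr13:13437352-13437651 (plus strand), Mmp14 at chr14:54431348-54431647 (plus strand), Timp2 at chr11:118355362-118355661 (minus strand), and Chad at chr11:94564797-94565096 (plus strand).

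Nid1: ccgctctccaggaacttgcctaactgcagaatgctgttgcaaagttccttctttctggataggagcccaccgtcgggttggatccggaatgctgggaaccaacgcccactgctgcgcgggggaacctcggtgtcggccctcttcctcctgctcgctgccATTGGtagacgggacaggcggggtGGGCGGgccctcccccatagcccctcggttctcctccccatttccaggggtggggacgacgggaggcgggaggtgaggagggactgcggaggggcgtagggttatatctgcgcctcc

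Mmp14: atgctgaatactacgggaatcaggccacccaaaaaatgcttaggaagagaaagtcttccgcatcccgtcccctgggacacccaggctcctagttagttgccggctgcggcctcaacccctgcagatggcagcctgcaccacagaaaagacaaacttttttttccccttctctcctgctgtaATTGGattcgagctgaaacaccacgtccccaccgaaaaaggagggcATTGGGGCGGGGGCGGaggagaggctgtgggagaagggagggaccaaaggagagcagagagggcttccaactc

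Timp2: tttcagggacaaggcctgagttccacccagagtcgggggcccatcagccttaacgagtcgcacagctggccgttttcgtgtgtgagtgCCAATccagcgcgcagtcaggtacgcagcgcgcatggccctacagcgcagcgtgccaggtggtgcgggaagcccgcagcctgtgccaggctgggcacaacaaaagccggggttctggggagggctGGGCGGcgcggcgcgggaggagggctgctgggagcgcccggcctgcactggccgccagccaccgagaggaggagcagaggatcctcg

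Chad: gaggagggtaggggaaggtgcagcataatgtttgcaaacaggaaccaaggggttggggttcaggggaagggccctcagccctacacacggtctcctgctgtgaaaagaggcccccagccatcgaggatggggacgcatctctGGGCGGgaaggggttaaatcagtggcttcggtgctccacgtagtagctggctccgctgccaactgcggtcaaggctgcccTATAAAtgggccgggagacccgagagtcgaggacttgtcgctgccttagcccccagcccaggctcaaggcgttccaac

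Each window held a GC box, as did 35.7% of all 32851 windows of the table. The windows of Nid1, Mmp14, and Timp2 also held a CCAAT box (37.4% of all windows), and in Mmp14 one of its 2 CCAAT boxes ran into the first of 2 adjoining GC boxes, so that a single run of capitals covers them. Chad held no CCAAT box and had a TATA box 28 bases before the start (13.6% of all windows). The letters of the AP-1 site (TGANTCA, 7.81% of all windows) were found in none of these 4 windows. These matches describe the sequence only.

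Among the basement membrane genes, Nid1 had signals of 636, 615, and 602 on the 1.4 Gy arrays, against 257, 212, and 298 on the 0 Gy arrays. All 1.4 Gy arrays lay above all 0 Gy arrays, with a log2 ratio of 1.29 ± 0.17 (SE), a 2.44-fold change (limma, adjusted p = 9.28e-07, n = 3 arrays each). At the other doses Nid1 was not called, with log2 ratios of 0.35, 0.02, 0.25, and 0.40 at 0.05, 0.5, 11.2, and 32.4 Gy. One array of 0.5 Gy stood apart, with a signal of 157 against 322 and 338 on the other two, and it was also the low array of its group for Lum and Timp3. Nid1 was lower at 11.2 Gy than at 1.4 Gy by 1.04 on the log2 scale (adjusted p = 1.32e-05) and at 32.4 Gy than at 1.4 Gy by 0.88 (adjusted p = 0.000194). The call against 0 Gy and both calls against 1.4 Gy were kept whichever array of the compared groups was left out, and the ratio at 1.4 Gy was 1.35 with the deposited values, also called. After limma's neqc background correction no basement membrane gene, Nid1 included, was called at 32.4 Gy against 1.4 Gy.

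The other 9 basement membrane genes gave no call at any dose. Nid2, the second nidogen, had log2 ratios between −0.17 and 0.06 over the 5 doses. Col4a1 and Col4a2 encode the chains of the most widespread type IV collagen and share a start region in the genome. Col4a1 had signals of 1061, 1029, and 1042 on the 0.5 Gy arrays, against 1380, 1393, and 1421 on the 0 Gy arrays, a log2 ratio of −0.42 ± 0.06 that passed the adjusted p (1.96e-06) and not the fold limit. Col4a2 had a ratio of −0.50 at 0.5 Gy, and at 32.4 Gy the ratios were −0.34 for Col4a1 and −0.21 for Col4a2. Of the laminin chains, Lama2, the chain of muscle and nerve basement membranes, had a ratio of 0.42 at 1.4 Gy, Lamc1 had 0.24 at 1.4 Gy and between −0.30 and −0.20 at the other doses, and Lamb2 had 0.35 at 0.5 Gy. Lama4 was detected on no array, and Hspg2 (perlecan) had ratios between −0.28 and 0.11. The median of the 10 genes was −0.04, −0.10, 0.13, −0.11, and −0.09 in rising order of dose, beside −0.01, −0.01, 0.00, −0.01, and −0.01 over all probes.

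**Figure D2:**
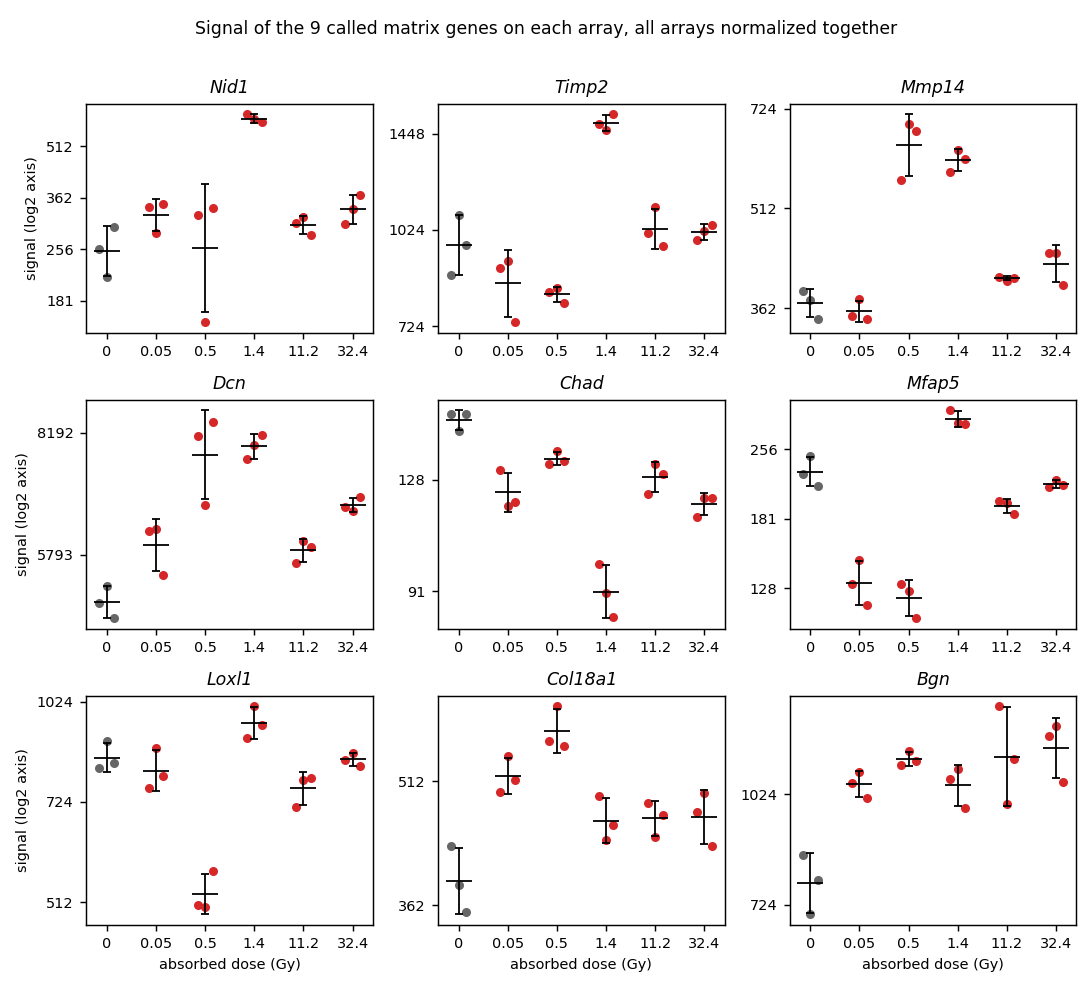
Signal on each array (points, log2 axis) of the 9 matrix genes called at 1 dose or more, by absorbed dose. Bars show the mean ± SD of the log2 signals of 3 arrays; Nid1, Timp2, and Mmp14 lie above every 0 Gy array at 1.4 Gy, and the 0.5 Gy array of Nid1 at 157 lies far below its fellows.

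Of the proteases and inhibitors, Mmp14 encodes a membrane-bound collagenase that also activates pro-MMP2. It had signals of 565, 688, and 670.3 at 0.5 Gy and 582, 628, and 608 at 1.4 Gy, against 384, 373, and 349 at 0 Gy. Both dose groups lay wholly above the controls, with log2 ratios of 0.79 ± 0.07 (1.73-fold, adjusted p = 1.40e-10) at 0.5 Gy and 0.72 ± 0.07 (1.64-fold, adjusted p = 3.88e-09) at 1.4 Gy. At 0.05 Gy the signals were 352, 374, and 349, within the range of the controls, and Mmp14 was higher at 0.5 Gy than at 0.05 Gy by 0.83 (adjusted p = 5.12e-10), a comparison within 1 deposited set that gave 0.82 with the deposited values. At 11.2 Gy it was lower than at 1.4 Gy by 0.59 (adjusted p = 6.39e-08), a call lost without the second 1.4 Gy array (ratio −0.56). With the deposited values the ratio to 0 Gy at 0.5 Gy was 0.18 and not called, where the median over all probes was −0.19. At 0.05 Gy, where that median was also −0.19, the deposited signals (367.5, 391, and 366) lay wholly below the controls (609, 591, and 553).

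Timp2 encodes a metalloproteinase inhibitor that also takes part in the activation of pro-MMP2 by the product of Mmp14. Its signals were 1499, 1466, and 1553 at 1.4 Gy, against 871, 1080, and 970.1 at 0 Gy, with no overlap. The log2 ratio was 0.63 ± 0.08 (1.55-fold, adjusted p = 4.00e-07), and it was 0.56 and not called either with the deposited values or without the first 0 Gy array. At 0.05, 0.5, 11.2, and 32.4 Gy the ratios were −0.20, −0.26, 0.08, and 0.07. Mmp2, the gelatinase itself, had ratios of −0.37, 0.18, 0.31, −0.05, and 0.08 in rising order of dose, none of them called. Timp3 had 0.42 at 1.4 Gy and 0.34 at 32.4 Gy. Timp1, which many tissues raise on injury, lay between −0.15 and 0.16 on its brightest probe, detected on 2 of the 3 arrays of 0 Gy. A dimmer probe of Timp1 gave 0.37 at 0.5 Gy (limma, adjusted p = 2.03e-05, not called). It was detected on all 3 arrays of 0.5 Gy and on none of 0 Gy.

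Among the small leucine-rich proteoglycans, which coat collagen fibrils and set their width, Dcn (decorin) had signals of 8107, 6662, and 8441 at 0.5 Gy and 7594, 7912, and 8144 at 1.4 Gy, against 5047, 5306, and 4845 at 0 Gy. The ratios were 0.60 ± 0.07 (1.52-fold, adjusted p = 8.43e-08) at 0.5 Gy and 0.64 ± 0.07 (1.56-fold, adjusted p = 1.03e-07) at 1.4 Gy. In the other 3 dose groups all arrays also lay above the controls, with ratios of 0.23, 0.21, and 0.40 at 0.05, 11.2, and 32.4 Gy. In the deposited values the 0.05 Gy arrays (5956, 5982, and 5270) lay below the controls (6663, 6984, and 6404). Those of 11.2 and 32.4 Gy lay above them. The call at 0.5 Gy was lost without the first 0.5 Gy array, the third 0.5 Gy array, or the third 0 Gy array (ratios of 0.57, 0.54, and 0.57), and with the deposited values the ratios were 0.12 at 0.5 Gy and 0.58 at 1.4 Gy, neither called. A second probe of Dcn, also detected on all arrays of these groups, gave 0.30 at 0.5 Gy (adjusted p = 0.0022, not called) and 1.04 at 1.4 Gy (adjusted p = 7.49e-12, called). Thus both probes called Dcn higher at 1.4 Gy and 1 of them at 0.5 Gy.

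Bgn (biglycan) had signals of 1230, 1269, and 1065 at 32.4 Gy, against 847, 703, and 782 at 0 Gy, with a ratio of 0.61 ± 0.09 (1.53-fold, adjusted p = 4.82e-06). It was the 1 gene of 50 called higher at 32.4 Gy, where 1.3% of all probes were called higher and 0.771% lower. With all arrays normalized together, all arrays of each of the 5 dose groups lay above all control arrays. In the deposited values the arrays of 0.05 Gy (1080, 1119, and 1032) and 0.5 Gy (1144, 1193, and 1156) overlapped the controls (1313, 1114, and 1226). The joint ratios were 0.45, 0.56, 0.44, 0.57, and 0.61 in rising order of dose, and the 5 doses did not pass an F test of differences among them (adjusted p = 0.399). With the deposited values, which come in 2 sets, they passed it (adjusted p = 2.02e-08). The call at 32.4 Gy was lost without the first or second 32.4 Gy array or the second 0 Gy array (ratios of 0.58, 0.56, and 0.54), and the ratio was 0.53 with the deposited values, not called. Lum (lumican) had ratios of −0.33, −0.48, 0.50, 0.06, and 0.22, none called. Its signals at 1.4 Gy were 797, 812, and 789, against 548, 562, and 587 at 0 Gy, wholly above the controls (adjusted p = 0.00127), and at 0.5 Gy they were 488, 292, and 472. Fmod (fibromodulin) was detected on 1 array of 0.5 Gy.

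Chad encodes chondroadherin, a leucine-rich protein of cartilage. It had signals of 98.5, 89.9, and 83.5 at 1.4 Gy, against 157, 149, and 157 at 0 Gy. No 1.4 Gy array was above background for it and all 3 arrays of every other group were, so its fall (log2 ratio −0.77 ± 0.06, 1.71-fold as measured, adjusted p = 2.45e-10) was given as at least 1.38-fold lower at 1.4 Gy than at 0 Gy, taking as its level on each 1.4 Gy array the higher of its own signal and the lowest among detected probes. At the other doses the ratios lay between −0.38 and −0.17. The other genes of the cartilage group were at background almost throughout. Col2a1 and Acan, which encode the main collagen and the main proteoglycan of cartilage, were detected on no array (signals of 91.2 to 110.9 and 89.8 to 106.3), nor were Col9a1 and Comp. Col9a2 was the exception, detected on all arrays of 0.05 and 0.5 Gy and on 1 of the 3 arrays of 0 Gy. Its ratio of 0.56 at 0.5 Gy fell short of the fold limit and includes control signals not above background.

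The genes called lower at the lowest doses were Mfap5 and Loxl1, both of elastic fibres. Mfap5 encodes a glycoprotein of the microfibrils. It had signals of 131, 148, and 118 at 0.05 Gy and 131, 126, and 110.3 at 0.5 Gy, against 227, 247, and 214 at 0 Gy. Both groups lay wholly below the controls, with ratios of −0.80 ± 0.07 (1.74-fold lower, adjusted p = 1.12e-09) and −0.90 ± 0.07 (1.87-fold lower, adjusted p = 5.01e-11). At 1.4 Gy the signals were 311, 291, and 291, wholly above the controls (ratio 0.38, not called), and at 11.2 Gy Mfap5 was lower than at 1.4 Gy by 0.63 (adjusted p = 1.02e-07). Mfap5 was detected on 2 of the 3 arrays of 0.5 Gy and on all others. All 3 calls were kept whichever array of the compared groups was left out, and the deposited values called all 3 as well. Mfap5 was the 1 gene of 50 called lower at 0.05 Gy, where 2.16% of all probes were called lower, and none of the 50 was called higher, where 2.59% of all probes were.

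Loxl1 encodes a lysyl oxidase that crosslinks elastin. Its signals were 508, 504, and 571 at 0.5 Gy, against 813, 893, and 829 at 0 Gy, without overlap, a ratio of −0.68 ± 0.07 (1.60-fold lower, adjusted p = 2.01e-09). At 0.05 Gy they were 761, 872, and 793 and overlapped the controls. The difference between 0.5 and 0.05 Gy was −0.62 (adjusted p = 1.17e-07), lost without the second 0.05 Gy array (−0.56) or the second 0.5 Gy array (−0.58). Lox, the lysyl oxidase of collagen, had signals of 155, 158, and 166 at 1.4 Gy, against 110.2, 104, and 121 at 0 Gy, and was called with the deposited values (ratio 0.75) and not jointly (0.52). Loxl2, Plod1, and Plod2 had ratios between −0.18 and 0.08. Of the remaining elastic fibre genes, Fbln1 had −0.39 and −0.32 at 0.05 and 0.5 Gy and 0.35 at 1.4 Gy, none called, and Eln (elastin) lay between −0.18 and 0.10.

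Of the listed collagens Col18a1 was the only one called at a dose. It encodes a basement membrane collagen from which endostatin is cut. Its signals were 573, 631, and 565 at 0.5 Gy, against 427, 383, and 355 at 0 Gy, a ratio of 0.60 ± 0.07 (1.52-fold, adjusted p = 9.50e-08). The call was lost without the second 0.5 Gy array (0.56) or the third 0 Gy array (0.54). The ratio was −0.01 with the deposited values, and a second probe, detected on 1 array of each of these groups, gave −0.08. At 0.05 Gy Col18a1 had 0.42 and Col15a1, the other multiplexin, 0.51, and at 0.5 Gy Col15a1 had 0.52. In the deposited values Col18a1 at 0.05 Gy had signals of 517, 571, and 534.5, against 680, 606.5, and 561 at 0 Gy. Those of Col15a1 were 264, 224, and 239 at 0.05 Gy and 257, 240, and 237 at 0.5 Gy, against 214.5, 233, and 243. Both genes thus overlapped the controls there. Jointly, the 2 chains of type VI collagen measured ran the other way. Col6a1 had −0.22 and −0.45 and Col6a2 −0.39 and −0.56 at 0.05 and 0.5 Gy. At 0.5 Gy, 3 of 50 genes were called higher (Mmp14, Dcn, and Col18a1), against 3.66% of all probes, and 2 lower (Mfap5 and Loxl1), against 3.88% of all probes. Of detected probes 8.6% were called higher and 9.13% lower.

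The fibrillar collagens gave no call at any dose. Col1a1, a chain of type I collagen, had signals of 172, 154, and 169 at 0.05 Gy and 241, 243, and 248 at 1.4 Gy, against 228, 201, and 232 at 0 Gy. The 0.05 Gy arrays lay wholly below and the 1.4 Gy arrays wholly above the controls, with ratios of −0.42 (adjusted p = 2.52e-05) and 0.15 (adjusted p = 0.195), and those at 0.5, 11.2, and 32.4 Gy were −0.20, −0.20, and −0.14. Col3a1 had ratios of −0.01, −0.08, 0.25, −0.24, and −0.25 in rising order of dose, and Col5a1 had −0.26, −0.19, 0.39, −0.13, and −0.07. Col1a2, the other chain of type I collagen, was detected on 2 of the 18 arrays, with signals of 93.3 to 115.6, and was thus at or near background.

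Of the matricellular proteins, which bind matrix and cells without building fibres, Sparc (osteonectin) had signals of 1457, 1312, and 1356 at 11.2 Gy and 1288, 1479, and 1250 at 0.5 Gy, against 1928, 1898, and 1738 at 0 Gy. These lay wholly below the controls, with ratios of −0.43 (adjusted p = 2.20e-05) at 11.2 Gy and −0.47 (adjusted p = 2.21e-06) at 0.5 Gy, short of the fold limit. At 1.4 Gy the ratio was 0.11 on this probe. A dimmer probe of Sparc, detected on all arrays, gave 1.13 at 1.4 Gy (adjusted p = 1.84e-12, called), so that the probes of Sparc disagreed there. They also ran opposite ways at 32.4 Gy, with −0.35 (adjusted p = 0.000471) on the brighter probe and 0.49 (adjusted p = 1.57e-05) on the dimmer, neither called. Postn was detected on no array and Tnc on 1, of 32.4 Gy.

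Counted over the 50 genes without regard to size, 20 had all 3 arrays above the controls at 1.4 Gy and 2 had all 3 below, where 13.4% of all probes lay wholly above and 13% wholly below. In the same pool the summed signal of the 10 salivary genes was 58630 to 60530 at 1.4 Gy, against 95640 to 99520 at 0 Gy, and its part in this count was not tested. The 20 included collagens (Col1a1, Col5a1, Col4a2), a laminin chain of muscle (Lama2), proteoglycans (Dcn, Lum, Bgn), lysyl oxidases (Lox, Loxl1), and inhibitors (Timp2, Timp3). At 0.05 Gy 7 genes lay above and 12 below (13.3% and 16.3% of all probes), and at 0.5 Gy 7 lay above and 15 below (16.4% and 17.8% of all probes). At 11.2 Gy 5 lay above and 11 below (11.8% and 15.4%), and at 32.4 Gy 9 lay above and 8 below (10.9% and 13.2%). With the deposited values 0 lay above and 37 below at 0.05 Gy (2.62% and 61.3% of all probes). They were 1 and 36 at 0.5 Gy (3.74% and 62.8%) and 21 and 2 at 1.4 Gy (13.4% and 12.9%). With all arrays normalized together, the median log2 ratio of the 50 genes was −0.02, −0.04, 0.10, −0.02, and −0.01 in rising order of dose. Over the 35 detected genes it was −0.07, −0.08, 0.23, −0.10, and −0.03. Over all detected probes it was −0.03, −0.01, 0.00, −0.04, and −0.02.

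**Figure D3:**
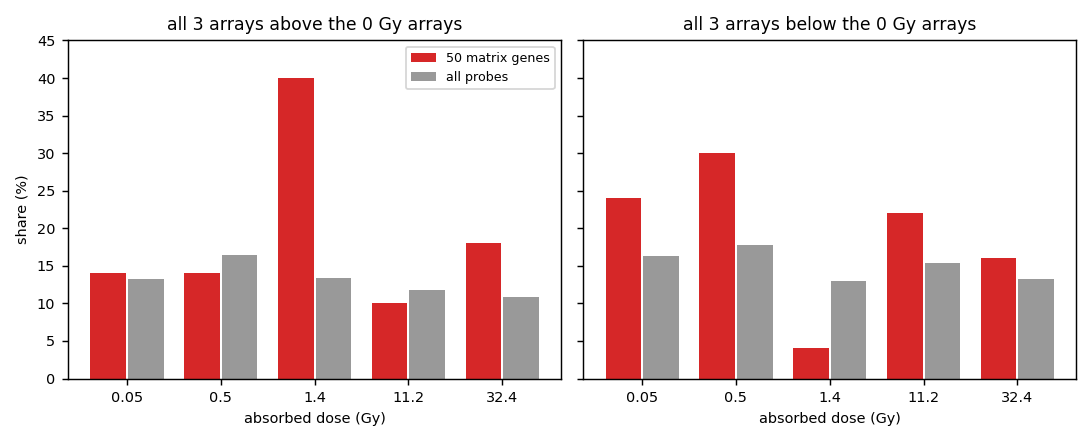
Share of the 50 matrix genes and of all probes whose 3 arrays at a dose lay all above (left) or all below (right) the 3 arrays of 0 Gy. All arrays were normalized together, and shares of detected probes alone are not drawn. At 1.4 Gy 20 of the 50 genes lay above and 2 below, against 13.4% and 13% of all probes.

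Between doses, at 0.5 Gy against 0.05 Gy 1 gene was higher (Mmp14) and 1 lower (Loxl1), where 0.479% and 0.564% of all probes were called. At 11.2 Gy against 1.4 Gy 3 were lower (Nid1, Mfap5, and Mmp14) and 0 higher, where 2.3% and 2.95% of all probes were called. At 32.4 Gy against 1.4 Gy 1 was lower (Nid1) and 0 higher (0.946% and 2.08% of all probes), and at 32.4 Gy against 11.2 Gy none was called (0.237% lower and 0.475% higher). Of detected probes 1.13% were higher and 1.33% lower at 0.5 Gy against 0.05 Gy. The shares against 1.4 Gy were 6.93% and 5.42% at 11.2 Gy and 4.9% and 2.22% at 32.4 Gy. The median ratio of the 50 genes was −0.16 at 11.2 Gy against 1.4 Gy, with 40 of 50 below 0, and −0.16 at 32.4 Gy against 1.4 Gy, with 38 of 50 below 0. In the F test among the 5 doses 28 of 50 genes passed an adjusted p of 0.01, against 25.3% of all probes. All 28 were among the 35 detected genes, and 58.6% of all detected probes passed.

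At the highest doses few ratios were large. At 11.2 Gy none of the 50 genes was called, where 1.83% of all probes were called higher and 0.946% lower, and the ratios ran between −0.43 (Sparc) and 0.57 (Bgn). At 32.4 Gy they ran between −0.38 (Chad) and 0.61 (Bgn).

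With the deposited values the picture at the lowest doses was another one. At 0.05 Gy 17 of the 50 genes were called lower and none higher, where 15.7% of all probes were called lower, and at 0.5 Gy likewise 17 and none, where 15.3% were. Of detected probes, however, 36.8% and 35.9% were called lower at these doses. Collagens (Col1a1, Col5a1, Col6a1, Col6a2, Col4a1), Sparc, Lum, and Mfap5 were in both sets. The median of the 50 genes was −0.34 at 0.05 Gy and −0.29 at 0.5 Gy, beside −0.19 at both doses over all probes. Over detected probes it was −0.46 and −0.44. At 1.4 Gy, whose arrays share a set with the controls, 3 genes were called higher (Nid1, Mmp14, and Lox), against 1.58% of all probes, and 1 lower (Chad), against 1.48%. The shares of detected probes were 3.71% higher and 3.47% lower.

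**Figure D4:**
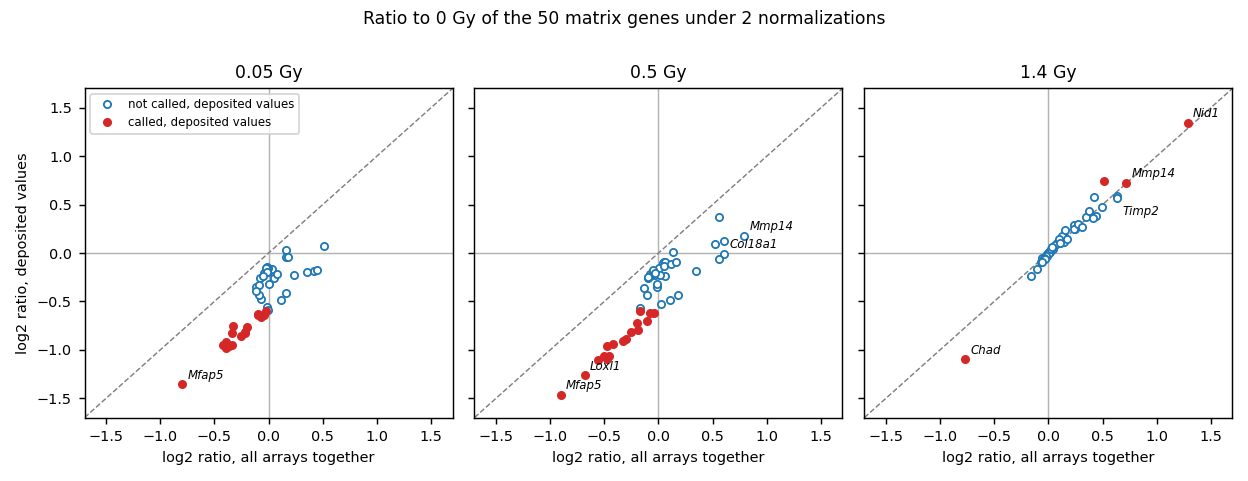
Log2 ratio to 0 Gy of each of the 50 matrix genes with all arrays normalized together (horizontal) and with the deposited values (vertical) at 0.05, 0.5, and 1.4 Gy; filled points were called with the deposited values. The points lie along the dashed line of equality at 1.4 Gy and below it at 0.05 and 0.5 Gy, where 17 genes each were called lower.

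Further matrix genes from lists beside the 50 were called as follows, given as counts higher and lower in rising order of dose. Beside them, 2.59%, 3.66%, 1.23%, 1.83%, and 1.3% of all probes were called higher and 2.16%, 3.88%, 1.19%, 0.946%, and 0.771% lower. Among detected probes the shares were 6.09%, 8.6%, 2.88%, 4.31%, and 3.05% higher and 5.08%, 9.13%, 2.79%, 2.22%, and 1.81% lower, and many of the counts are of 1 or 2 genes. Of 17 other collagens 1, 3, 0, 0, and 0 were higher and 0, 0, 1, 0, and 0 lower, led by Col16a1 (log2 ratio 0.78 at 0.05 Gy and 2.32 at 0.5 Gy) and Col17a1, a collagen of epithelial anchoring (1.14 at 0.5 Gy, though detected on 1 of the 3 arrays of 0 Gy). Col7a1, which anchors epithelial basement membranes, had 0.69 at 0.5 Gy and −0.85 at 1.4 Gy, where it was detected on 1 of 3 arrays. The ratios of Col17a1 at 0.5 Gy and of Col7a1 at 1.4 Gy thus include signals not above background. With the deposited values Col16a1 at 0.05 Gy (0.32) and Col7a1 at 0.5 Gy (0.21) were not called, and Col16a1 at 0.5 Gy (1.84) was. Of 28 other glycoproteins and proteoglycans 2, 3, 3, 1, and 2 were higher and 2, 4, 0, 0, and 0 lower. Lamb3, a laminin chain of epithelia, had 1.41, 1.39, 1.19, and 0.80 at 0.05, 0.5, 11.2, and 32.4 Gy. Ogn (osteoglycin) had −0.83, 1.18, and 0.73 at 0.5, 1.4, and 32.4 Gy. Tnxb, a tenascin, had −0.90 at 0.5 Gy. With the deposited values 1 of these 28 was called higher and 7 lower at 0.05 Gy, and 1 higher and 9 lower at 0.5 Gy. Of detected probes 2.45% and 3.5% were called higher there and 36.8% and 35.9% lower.

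Of 16 genes of collagen synthesis 1, 1, 1, 1, and 0 were higher and 0, 1, 1, 0, and 0 lower. P4hb, a subunit of prolyl 4-hydroxylase and also a general folding enzyme of the endoplasmic reticulum, had 1.03, 1.36, −1.23, and 0.95 at 0.05, 0.5, 1.4, and 11.2 Gy, and Pcolce2 had −0.71 at 0.5 Gy and 0.63 at 1.4 Gy. Of 14 other metalloproteinases and inhibitors 1, 1, 1, 0, and 0 were higher and 1, 1, 0, 1, and 0 lower. Mmp3 (stromelysin) had 0.92, 1.37, and 0.73 at the 3 lowest doses, and Timp4 had −0.67, −1.05, and −0.64 at 0.05, 0.5, and 11.2 Gy. Of 16 collagen and laminin receptors 3, 3, 1, 0, and 0 were higher and 1, 2, 0, 0, and 0 lower, and Itga11, a collagen-binding integrin of fibroblasts, had −0.94, −0.97, and 0.60 at the 3 lowest doses. Of 20 genes of the TGF-beta pathway, the main inducer of matrix genes, 2, 5, 0, 3, and 1 were higher and 1, 4, 0, 0, and 0 lower. Its target Ctgf had 1.91 at 0.5 Gy and 0.82 and 0.79 at 11.2 and 32.4 Gy, Pdgfa had 0.84, 1.10, and 0.83 at 0.05, 0.5, and 11.2 Gy, and Tgfb3, detected on no 0 Gy array and on all arrays of 0.5 Gy, was called higher at 0.5 Gy. With the deposited values P4hb (0.48), Mmp3 (0.50), and Pdgfa (0.23) at 0.05 Gy were not called, nor was Pdgfa at 0.5 Gy (0.47). P4hb (0.84), Mmp3 (0.95), and Ctgf (1.36) at 0.5 Gy were called there as well. None of the receptors called higher at 0.05 or 0.5 Gy was called higher with the deposited values, with ratios of 0.07 to 0.48. Of the TGF-beta genes called higher at these doses, only Ctgf and Tgfb3 at 0.5 Gy were called there.

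Marker genes of other cell types also differed between the pools, and are counted here as above. Of 13 fibroblast markers outside the 50 genes, 3 were called higher at 1.4 Gy (Dpt 1.39, Pdgfra 0.87, and Clec3b 0.63), and their summed signal was 4401 to 4583 at 1.4 Gy, against 3047 to 3410 at 0 Gy. At 0.05, 0.5, 11.2, and 32.4 Gy 1 of 13 was called lower and none higher, each time Vim (−1.60, −1.68, −0.96, and −0.60), and the summed signals were 2398 to 2727 at 0.05 Gy and 2279 to 2411 at 0.5 Gy. Of 10 endothelial markers 2, 7, 0, 1, and 0 were called lower in rising order of dose, and their summed signal at 0.5 Gy was 2983 to 3088, against 4831 to 5298 at 0 Gy. Of 7 adipocyte markers 0, 0, 2, 0, and 0 were higher (Adipoq and Lep, 0.77 each at 1.4 Gy) and 1, 2, 0, 2, and 0 lower, among them Pparg (−1.09, −1.31, and −0.87 at 0.05, 0.5, and 11.2 Gy) and Lep at 11.2 Gy (−1.40). Of 7 macrophage markers Mrc1 was higher at 1.4 Gy (0.75), and 3 were lower at 0.05 Gy and 2 at 0.5 Gy, led by Lyz2 (−1.37 and −1.25). Pmp22, of 3 Schwann cell markers, was higher at 1.4 Gy (0.70). Of 7 smooth muscle markers 1, 2, 0, 2, and 2 were higher and none lower, and Acta2 had 0.73, 1.08, 0.91, and 0.67 at 0.05, 0.5, 11.2, and 32.4 Gy. With the deposited values Acta2 had 0.24 and 0.57 at 0.05 and 0.5 Gy, not called, and was called at 11.2 and 32.4 Gy. Of 7 brown adipocyte markers 5 were called lower at 0.05 Gy and 5 at 0.5 Gy, not all of them the same genes. One of them, Ppargc1a, was lower at 0.05 Gy (−0.70) and called higher at 11.2 and 32.4 Gy (0.80 and 0.88). Of 4 erythrocyte markers 3 were called lower at each of 0.05 and 0.5 Gy. Of 12 chondrocyte markers outside the 50 genes 7 were detected on no array, and Sox9, which salivary epithelium also expresses, had 0.95, 1.12, and 0.65 at 0.05, 0.5, and 11.2 Gy. Mia, detected on no 0 Gy array, was called higher at 0.5 Gy (0.76). Of 4 markers of C cells and parathyroid 3 were detected on no array and Ret, detected on no 0 Gy array, was called higher at 0.05, 0.5, 11.2, and 32.4 Gy. The part of these markers in the matrix results was not tested.

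**Figure D5:**
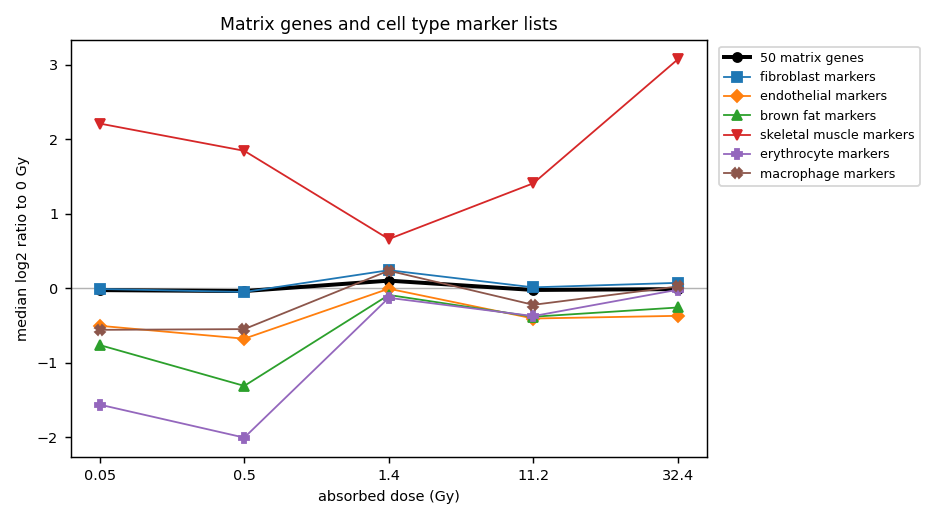
Median log2 ratio to 0 Gy at each absorbed dose of the 50 matrix genes (black) and of marker lists of 6 cell types or tissues. The matrix genes lie near 0 with their highest median at 1.4 Gy (0.10, and 0.23 over the 35 detected genes alone, not drawn). Skeletal muscle markers lie between 0.66 and 3.07 and erythrocyte markers reach −2.00 at 0.5 Gy.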

How the data were processed

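Tissue labelled thyroid was pooled per group by the authors, and total RNA of each pool was run in triplicate on Illumina MouseRef-8 arrays. The deposited tables hold fluorescence intensity on a linear scale, each value paired with its detection p-value, as signals before and after the authors' quantile normalization. Whether background was subtracted is not given in the sources used here. Precision is limited by 3 arrays of 1 pool per group, and pool and dose cannot be told apart.

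For the results given first, the non-normalized intensity values of all 18 arrays were quantile normalized together, log2 transformed, and fitted with 1 mean per group in limma 3.58.1 (R 4.3.3), with Benjamini-Hochberg adjustment over 25697 probes; 815 control probes were not used and 1719 probes have no gene symbol. A call needed an adjusted p under 0.01 and 1.5-fold. The log2 ratios and their SE come from this fit. The 5 doses were each compared with 0 Gy, 4 pairs of doses with each other, and all 5 doses in an F test. The deposited normalized intensity values, fitted likewise, were the main alternative. On simulated data (1.4 Gy against 0 Gy, 25697 probes) 0 of 50 changes of 1.2-fold, 28 of 50 of 1.5-fold, and 50 of 50 of both 2-fold and 4-fold were called, with 0 false calls.

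Genes were named in full if called at a dose, up to 16, or if they were among Col1a1, Col1a2, Col3a1, Fn1, Sparc, Dcn, Col4a1, Col2a1, and Acan, and up to 3 called genes were named of each further list. Some others (Lum, Lox, Nid2, Col9a2, Col15a1, and further members given with a range) were named to complete their role group. The members and lists were chosen with earlier results of these data known. Other gene symbols were matched through the platform's probe table and RefSeq synonyms. Figures were drawn in matplotlib 3.10.9.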

Additional observations from a re-analysis of the deposited data

How the results depend on the processing

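The counts of matrix genes called rest on 3 arrays of 1 pool per group, and several calls lie just past the fold limit. With the deposited normalized values 17 genes each were called at 0.05 and 0.5 Gy, 0 at 32.4 Gy, and 2 at 32.4 Gy against 1.4 Gy, and of 44 ratios of single genes followed here 32 passed the limits that did not with all arrays normalized together. The median of all probes in these values was −0.19 at 0.05 and 0.5 Gy, and 93.8% and 91.1% of the probes called there were called lower, against 45.5% and 51.5% jointly. After limma's neqc background correction 5 and 9 genes were called at 0.05 and 0.5 Gy, 2 each at 11.2 and 32.4 Gy, and 5 at 0.5 Gy against 0.05 Gy, 8 at 11.2 Gy against 1.4 Gy, and 4 at 32.4 Gy against 1.4 Gy. After scaling each array to its 75th percentile 1 gene was called at 11.2 Gy (Sparc) and 0 at 32.4 Gy, and 1 at 0.5 Gy against 0.05 Gy, 16 at 11.2 Gy against 1.4 Gy, and 7 at 32.4 Gy against 1.4 Gy. That scaling moved the median of all probes at 0.5 Gy to −0.15, and the share of called probes that were lower to 36.6% at 1.4 Gy and 60.3% at 11.2 Gy, against 49.2% and 34% jointly.

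Taking a gene's next brightest probe, where it has one, 3 genes were called at 0.5 Gy, and 5 at 11.2 Gy, 2 at 32.4 Gy (both against 1.4 Gy), and 1 at 32.4 Gy against 11.2 Gy. Among these 44 ratios the direction turned for Col18a1 at 0.5 Gy with the deposited values (−0.007) and with its next probe (−0.0783), and for Fbln1 with its next probe, detected on no array of these groups, at 0.05 Gy (0.0559) and 0.5 Gy (0.0492). Outside them Sparc at 32.4 Gy, among others not called, turned from −0.35 to 0.49 with its next probe, which all arrays detected. Leaving out 1 array gave 3 to 7 genes at 0.5 Gy (3 without the third 0 Gy array), 4 to 5 at 1.4 Gy, 0 to 1 at 11.2 Gy (1 without the second 11.2 Gy or the first 0 Gy array), 0 to 1 at 32.4 Gy (0 without the first or second 32.4 Gy or the second 0 Gy array), 1 at 0.05 Gy, 1 to 2 at 0.5 Gy against 0.05 Gy (1 without the second 0.5 Gy array), 2 to 4 at 11.2 Gy against 1.4 Gy, 1 to 2 at 32.4 Gy against 1.4 Gy (2 without the second 1.4 Gy or the third 32.4 Gy array), 0 at 32.4 Gy against 11.2 Gy, and 26 to 29 in the F test. Leaving out 1 array, Fbln2 at 0.5 Gy had ratios of −0.0857 to 0.0058 (the highest without the first 0 Gy array), and Timp3 at 0.05 Gy had −0.0576 to 0.023 (the highest without the third 0 Gy array). The causes of these changes were not tested.

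The counts kept within 1.5 times when detected probes only, the groups compared only, or the 12 arrays without 0.05 and 0.5 Gy were fitted, of which the last was chosen after seeing the data. With the replicate block the counts were 1, 5, 5, 0, and 1 in rising order of dose and 29 in the F test. The array numbers only name arrays of 1 pool: the correlation of their deviations was −0.043 to 0.295 for the same number (median 0.09) and −0.314 to 0.175 for different numbers (median −0.046). The files name no BeadChip, so a fit with the chip as a block was not run. The signals of 15 of the 50 genes were not above background on all 3 arrays of any group, which limits what their ratios can show.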
